A study of Mus musculus with 6 samples.

Results

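The control forebrains of the series are 3 of its 6 samples. They came from C57BL/6 mice at postnatal day 9 whose genotype is given as Parp1fl/fl without Cre. The gene Parp1, which encodes the main poly(ADP-ribose) polymerase, is flanked by loxP sites in these mice, and no recombinase was present to remove it. They were littermates of Pdgfra-CreER:Parp1fl/fl mice, which are not described here. All mice, controls included, had tamoxifen by intraperitoneal injection on postnatal days 1, 2 and 3, so the values describe tamoxifen-treated and not untreated mice. The labels give the tissue as brain, and the extraction protocol narrows it to forebrain. Polyadenylated RNA of each forebrain was sequenced as 1 library, and the libraries are called mouse 1, 2 and 3 by the replicate numbers of the labels. The series counts 3 control mice, so each library stands for 1 animal, and library preparation adds to the spread between animals.

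The forebrain of a mouse at this age is in transition. Neurons of the cortex, striatum and thalamus have been born and are growing axons, dendrites and synapses, while new neurons still arise in the ventricular-subventricular zone and the dentate gyrus. Astrocytes and oligodendrocyte precursors are multiplying, and the earliest oligodendrocytes are wrapping axons. Oligodendrocytes form in stages: precursors carry the growth factor receptor Pdgfra, committed cells switch on Gpr17 and Bcas1, and myelinating cells make the membrane and sheath proteins Mbp and Mog.

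The libraries held 17262042, 21552334 and 22118915 counts in mice 1, 2 and 3. Levels are given in FPKM, the count scaled to gene length and to the library's total, which allows genes of different length to be compared. Of 35275 gene identifiers, 13238 reached 1 FPKM in every library, and 12386 of these were protein-coding. At 10861 identifiers no read was counted in any of the 3 libraries. A count of 0 allows up to 0.174 CPM (the count scaled to the library's total alone) in the smallest library, for counting error only. Of 491 distinct genes in the lists, 93 share exon sequence with a gene on the opposite strand. If strand was not used in counting, reads of such pairs cannot be told apart, and among genes described below this holds for mt-Nd5, mt-Nd6, Cfl1, Meg3, Glul, Map2, Slc1a2, Ppp1r1b, Penk, Sirt2, Olig1, Cnp, Nefl, Gpr17, Bcas1, Sox8, Bmp4, Nkx6-2, Ermn, Dlx1, Pdgfa, Wnt7b, Grin1, Grin2b, Grin3b, Gabra4, Gabra5, Gabrb1, Glra1, Scn9a, Xist, Tsix, Slc2a1, Aldh1l1, Zic1, Gbx2, Gata3, Pmch, Irs4, Mid1, Hes5, Jun, Dusp1, Ccnd2, Gapdh, Tbp, Tpi1, Sgip1, Adam15, Kcnq1ot1 and Pitx3. The same holds for Tagln and Agrp. Mitochondrial genes took 3%, 3% and 2.4% of the counts.

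Whether mice differed was tested per gene by a chi-square test of the 3 counts against counting error alone, with a call at a Benjamini-Hochberg adjusted p under 0.05. Of 16690 genes with a mean count of at least 10, 7287 were called, or 43.7%. The test asks if 3 libraries differ by more than read sampling and has no replicates of its own, so it compares these mice and not conditions. The share called grew with level, from 23.2% of genes between 0.1 and 1 FPKM to 56.3% between 10 and 100 FPKM and 84.2% between 100 and 1000 FPKM. The size of the spread is given as the biological coefficient of variation (CV), the SD over the mean after the counting variance is taken off. Its median over the tested genes was 6.79%, beside a median counting CV of 4.92%. It was 0 for 3672 genes, or 22%, and reached 37.8% at the 95th percentile.

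Mouse 3 stood apart from mice 1 and 2. Of 13835 genes with a mean of at least 1 FPKM, 84 were over 2-fold apart between mice 1 and 2, against 286 between mice 1 and 3 and 267 between mice 2 and 3. The median fold between mice was 1.07, 1.11 and 1.11 for the same pairs. Without mouse 3, 2397 genes or 14.4% were called and the median biological CV was 2.27%. Without mouse 1 or mouse 2 the share was 33.6% in both cases, from 5642 and 5580 calls. Counts of called genes in a list are given below for the 3 mice, beside 43.7% of all tested genes, and for mice 1 and 2 alone, beside 14.4%.

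**Figure D1:**
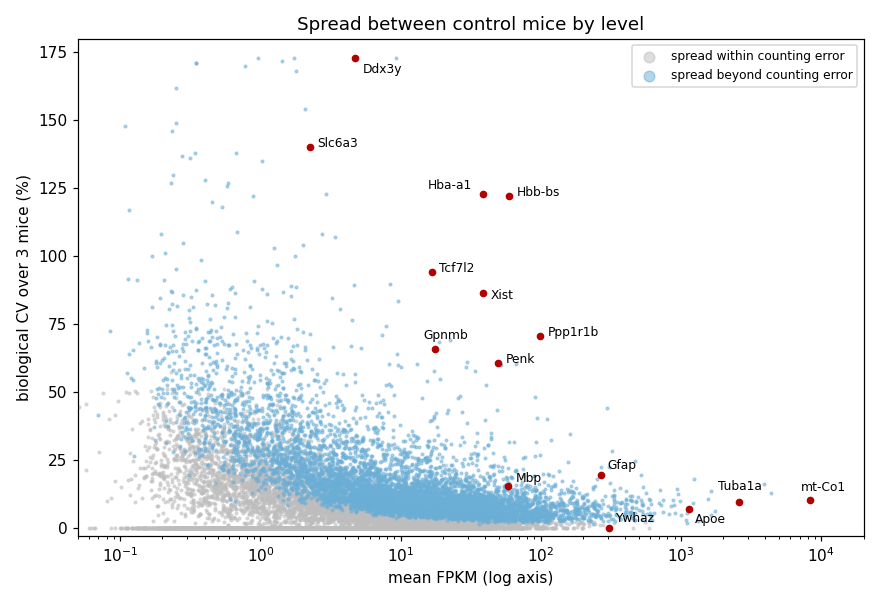
Each point is 1 tested gene, with its mean FPKM of the 3 control mice on a log axis and its biological CV in percent. Blue genes differed between mice beyond counting error and grey genes did not. Named genes are in red. Of the named genes, Ddx3y and Slc6a3 have the largest CVs, at 173% and 140%. The gene with the highest level, mt-Co1, is at 10.2%, and Ywhaz is at 0%.

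The most abundant transcripts came from the mitochondrial genome, the growing cytoskeleton and the ribosome. Of the 20 genes with the highest mean FPKM, 7 were mitochondrial. They were led by mt-Co1, a catalytic subunit of cytochrome c oxidase, at 8842, 8765 and 7213 FPKM in mice 1, 2 and 3. mt-Nd1, a subunit of complex I, followed at 4758, 4725 and 3701 FPKM, and mt-Cytb, the cytochrome b of complex III, at 4199, 4322 and 3129 FPKM. All 3 were lowest in mouse 3, where they were below both other mice, whose values lay close together.

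Tuba1a, the alpha tubulin of growing neurons, had the highest level of the nuclear genes, at 2328, 2690 and 2743 FPKM. Other cytoskeletal genes among the 20 were Tmsb4x, a thymosin that binds free actin, at 1328 ± 45.7 FPKM (SD, n = 3 mice), and Cfl1, the actin-severing cofilin, at 1080 ± 42.5 FPKM. Stmn1 and Stmn2, the stathmins that destabilise microtubules in extending neurites, stood at 1005 ± 56.2 and 898 ± 41.9 FPKM. The beta tubulin Tubb2a was at 950 ± 108 FPKM. These genes all lay below Tuba1a. Tuba1a and Tubb2a are 98.3% and 96.4% identical to Tuba1b and Tubb2b over 75.3% and 83.9% of their length, so the division of reads within these pairs is uncertain.

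The translation machinery was represented by the elongation factor Eef1a1 at 1637 ± 87.2 FPKM and by the ribosomal proteins Rplp1 at 1557 ± 180 FPKM and Rps27 at 1213 ± 121 FPKM. Apoe, the lipid carrier that astrocytes secrete, was at 1220, 1066 and 1131 FPKM. Cst3, the protease inhibitor cystatin C, was at 1089, 903 and 815 FPKM. The remaining members were Calm2, a calmodulin gene, at 1094 ± 24.5 FPKM, Cpe, the peptide-processing carboxypeptidase E, at 984 ± 89.6 FPKM, and the mitochondrial genes mt-Nd2, mt-Nd4, mt-Nd5 and mt-Nd6.

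Together the 20 genes took 5.05%, 5.04% and 4.47% of the counts of mice 1, 2 and 3. All 20 differed between the 3 mice beyond counting error, where counting CVs are small. Of all tested genes between 100 and 1000 FPKM, 84.2% differed as well. Between mice 1 and 2 alone 18 of 20 differed, the exceptions being mt-Nd1 and Tmsb4x, beside 14.4% of all tested genes of any level. Ranked without mouse 3, 18 of the 20 genes stayed in the group. A ranking by count favours long transcripts and shared 10 genes with the ranking by FPKM. There the noncoding RNA Meg3, with 111853, 144985 and 136623 counts, came second after mt-Co1.

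**Figure D2:**
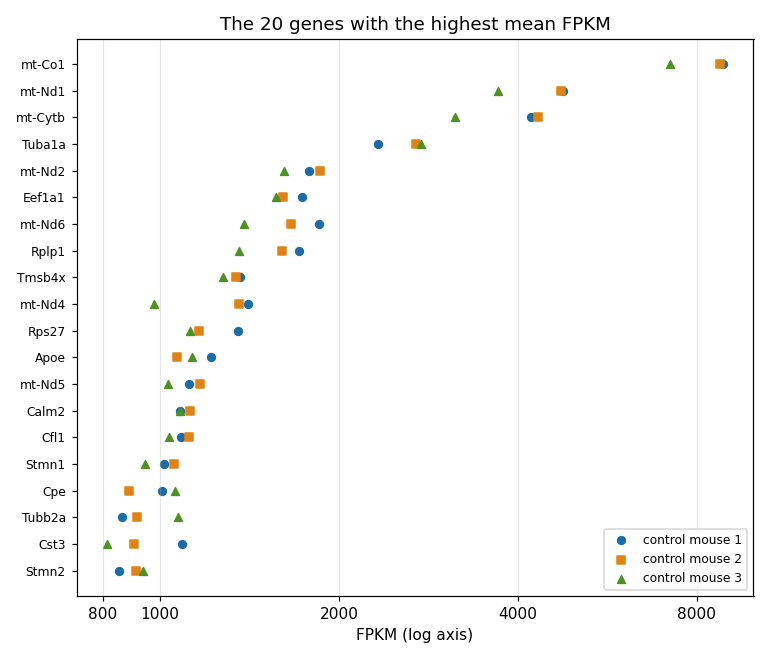
The 20 genes with the highest mean FPKM, with the FPKM of each control mouse on a log axis (circle, square and triangle for mice 1, 2 and 3). The 7 mitochondrial genes were lowest in mouse 3, and mt-Co1 was at 8842, 8765 and 7213 FPKM.

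The 13 protein-coding mitochondrial genes fell into separate ranges of level. mt-Co1, mt-Nd1, mt-Cytb, mt-Nd2, mt-Nd6, mt-Nd4 and mt-Nd5 had means from 1105 to 8273 FPKM. mt-Nd3, mt-Co3, mt-Co2, mt-Atp6 and mt-Nd4l had means from 2.33 to 92.8 FPKM, and mt-Atp8 was listed at 0 in every mouse. The 5 genes of the lower range align at 100% identity over 98.3% to 99.9% of their length with genes on chromosome 1 (Gm28438, Gm28437, Gm28661, Gm10925 and Gm10222), a nuclear copy of mitochondrial DNA. The 6 genes of the upper range other than mt-Co1 align with that copy over at most 3.28% of their length. Reads of the lower 5 genes cannot be told from reads of the copy by sequence, so their levels are uncertain, and the part of the copy in them was not tested.

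mt-Co1 spans the edge of the copy. Its last part, 31.3% of its length, aligns with Gm29216 at 482 of 483 bases, without gaps. The edge is shown by a window of 60 bases in both places, taken from GENCODE transcripts on GRCm38, with bases that differ in capitals.
mt-Co1, chrM:6381-6440, plus strand: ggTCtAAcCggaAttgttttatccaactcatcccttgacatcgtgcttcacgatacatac
Gm29216, chr1:24616138-24616197, minus strand: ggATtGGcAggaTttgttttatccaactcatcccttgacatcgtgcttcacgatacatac
The 6 differences lie in the first 13 bases, and the following 47 bases are identical. Gm29216 itself had a mean of 58.9 FPKM, and mt-Co1 of 8273 FPKM.

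Of the cell type lists, immature neurons, astrocytes and neurons in general had the highest levels. The lists are textbook markers, and their members' mean levels are summarised as a median. Markers of migrating and immature neurons had a median of 383 FPKM, with 14 of 14 members above 1 FPKM and 13 above 10 FPKM. Besides the stathmins they were led by Tmsb10, a thymosin, at 813, 793 and 857 FPKM, and Gap43, the growth cone protein, at 543, 612 and 655 FPKM. Dcx, which marks migrating neurons, was at 59.8, 64.8 and 52.8 FPKM, and Igfbpl1 was lowest of the list at 8.19, 8.21 and 5.04 FPKM.

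The 13 pan-neuronal markers had a median of 108 FPKM. Vamp2, the synaptic vesicle SNARE, was at 460, 456 and 449 FPKM and showed no spread beyond counting error. Map2, the dendritic microtubule protein, was at 251 ± 10.3 FPKM and Thy1 at 234 ± 9.97 FPKM. The neurofilaments, which stiffen mature axons, were less even. The heavy chain Nefh was at 4.21, 4.66 and 8.8 FPKM, and the light chain Nefl at 34.3, 37.1 and 60.1 FPKM, both highest in mouse 3. The summed level of the 13 genes was 1899, 1934 and 2011 FPKM, a 1.06-fold range.

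Of 10 glutamatergic markers, Nrgn, the postsynaptic neurogranin, led at 606, 648 and 515 FPKM. Camk2a, the kinase of excitatory synapses, was at 186, 198 and 159 FPKM. Slc17a7, the vesicular glutamate transporter VGLUT1 of cortical neurons, was at 152, 182 and 162 FPKM. Slc17a6, VGLUT2, which subcortical neurons use, was at 15.4, 11.9 and 39.9 FPKM, so mouse 3 lay above both others. VGLUT3, encoded by Slc17a8, was the lowest at 1.99 ± 0.33 FPKM.

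GABAergic markers had a median of 36.5 FPKM. The interneuron peptide Sst was at 276, 221 and 206 FPKM. Npy was at 124, 104 and 69.7 FPKM, and Calb2, the calcium-binding calretinin, at 42.4, 45.7 and 112 FPKM. Gad1 and Gad2, the enzymes that make GABA, were at 51 ± 3.23 and 34.2 ± 4.15 FPKM. Pvalb, which fast-spiking interneurons acquire as they mature, was the lowest member at 3.02, 3.37 and 3.75 FPKM, without spread beyond counting error. Sst thus exceeded Pvalb in every mouse by a wide margin. Markers of monoamine and acetylcholine neurons were low, with 4 of 10 above 1 FPKM and a median of 0.951 FPKM.

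Markers of radial glia, neural stem cells and intermediate progenitors were present at a much lower level than those of immature neurons. The radial glia and neural stem cell list had a median of 6.41 FPKM, led by Fabp7, a fatty-acid binding protein, at 159, 208 and 166 FPKM. Fabp7 is also the highest member of the list of olfactory ensheathing glia. Sox2, the stem cell factor, was at 35.7, 35.2 and 38.9 FPKM. Intermediate progenitor markers had a median of 3.29 FPKM. Dlx1 and Dlx5, factors of ventral interneuron progenitors, were at 22.8, 22.3 and 13.5 FPKM and at 12.9, 11.4 and 5.59 FPKM. Eomes, the factor of cortical intermediate progenitors, was at 0.797, 1.93 and 0.571 FPKM, and Neurog1 was near 0 in every mouse. The Dlx genes were lowest in mouse 3 and close together in mice 1 and 2.

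Proliferation was measurable but low. All 20 cell cycle genes had a mean above 1 FPKM, and their median was 1.91 FPKM. Pcna, the replication clamp, which nondividing cells also use in repair, led at 29, 35.2 and 32.1 FPKM. Ccnd2 followed at 15.6, 15.1 and 11.5 FPKM. The proliferation marker Mki67 was at 1.6, 1.98 and 1.04 FPKM, and Top2a, which untangles DNA before division, at 2.44, 2.65 and 1.39 FPKM. Of the 20 genes 15 differed between the 3 mice (43.7% of all tested genes) and 3 between mice 1 and 2, close to the 14.4% of all tested genes. Mouse 3 was lowest for 16 of 20, against 41.6% of all tested genes.

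Astrocyte genes had a median of 134 FPKM, and 16 of 16 were above 10 FPKM. After Apoe came Sparcl1, a secreted synapse-promoting protein, at 436, 413 and 490 FPKM, and Glul, glutamine synthetase, at 379, 331 and 327 FPKM. Gfap, the intermediate filament of astrocytes, was at 295, 305 and 206 FPKM, with mice 1 and 2 close together. The glutamate transporters Slc1a2 and Slc1a3 were at nearly equal levels, 128 ± 6.73 and 119 ± 5.82 FPKM. Aldh1l1, an enzyme of folate metabolism often used to label astrocytes, was the lowest at 11.9 ± 0.868 FPKM. All 16 differed between the 3 mice beyond counting error and 13 of 16 between mice 1 and 2, against 43.7% and 14.4% of all tested genes. Of genes between 100 and 1000 FPKM, where many of these lie, 84.2% differed between the 3 mice, and the median CV of the list was 7.46%, beside 6.79% for all tested genes.

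**Figure D3:**
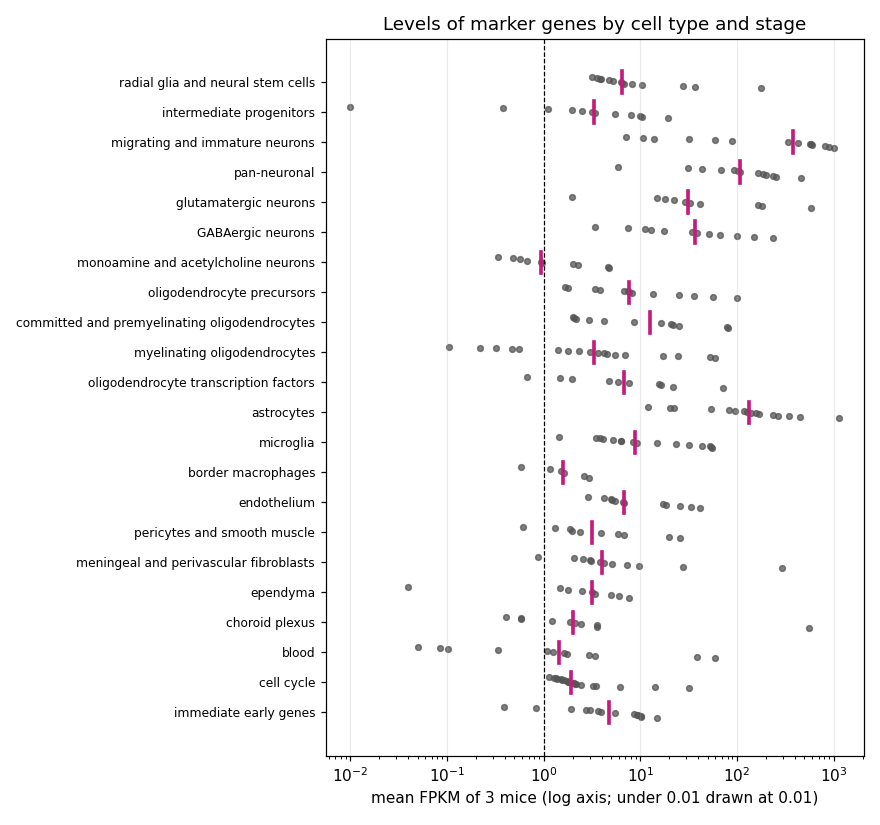
Mean FPKM of each marker gene (grey points, log axis) by cell type or stage, with the median of the list as a magenta bar and 1 FPKM as a dashed line. Immature neurons, astrocytes and pan-neuronal genes have medians of 383, 134 and 108 FPKM, and the 3 oligodendrocyte stages lie between 3.33 and 12.6 FPKM.

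The oligodendrocyte lineage was present at every stage up to early myelin, with the genes of late myelin near the limit of measurement. In a whole forebrain, fewer cells of a type and less RNA per cell cannot be told apart, here or in any other list. Among 13 measured precursor genes, Cspg5, a proteoglycan that astrocytes and neurons also make, was at 102, 101 and 101 FPKM. Ptprz1, a receptor phosphatase shared with radial glia, was at 56.8 ± 3.95 FPKM, and Gpr37l1, shared with astrocytes, at 35.7 ± 2.92 FPKM. Pdgfra, the receptor that drives precursor division and whose promoter drives the Cre of the littermates, was at 24.5, 23 and 27.1 FPKM. Its biological CV was 9.03%, and the values of mice 1 and 2 were close together. The summed level of the 13 genes was 273, 271 and 276 FPKM, a 1.02-fold range, and most of it came from Cspg5, Ptprz1 and Gpr37l1. Singly the genes were less even. Between the 3 mice 8 of 13 differed and between mice 1 and 2 4 of 13, beside 43.7% and 14.4% of all tested genes.

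Committed and premyelinating genes had a median of 12.6 FPKM over 12 members. Sirt2, a deacetylase that persists in myelin, was at 85.3, 75.2 and 80.1 FPKM, and Fyn, the kinase that promotes process outgrowth and is also neuronal, at 78.4, 75.5 and 81.9 FPKM. Gpr17, a receptor that marks the committed stage, was at 19.8, 26.1 and 19 FPKM, with mouse 2 above the others. Bcas1, which marks cells that are starting to myelinate, was at 22.2, 19.7 and 19.8 FPKM. Enpp6 was at 2.3, 2.02 and 2.15 FPKM and Bmp4 at 2.19, 1.96 and 1.88 FPKM, both without spread beyond counting error. Tcf7l2, a factor of premyelinating cells that thalamic neurons also express, was at 8.27, 7.06 and 34.5 FPKM. It was far above in mouse 3, and without that mouse the median of the list was 6.85 FPKM.

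The 18 myelinating genes covered more than 2 orders of magnitude. Mbp, the basic protein that compacts the sheath, was at 58, 50.5 and 67.4 FPKM. Cnp, which keeps cytoplasmic channels in the sheath open, was at 58.7, 47.6 and 52.5 FPKM. Apod was at 14.6, 13.7 and 23.6 FPKM. Mag and Mog, proteins of the inner and outer surface of the sheath, were an order of magnitude below Mbp, at 5.48 ± 1.13 and 4.53 ± 0.99 FPKM. Myrf, the factor that switches on the myelin program, was at 3.37, 2.54 and 3.13 FPKM. At the bottom were Ermn at 0.222 ± 0.0175 FPKM and Opalin, late products of the mature cell, with Opalin at 0.0946, 0.126 and 0.0984 FPKM. Of 17 tested members, 12 differed between the 3 mice and 6 between mice 1 and 2, beside 43.7% and 14.4% of all tested genes. Mouse 2 was lowest and mouse 3 highest for 12 each, against 27.4% and 34.4% of all tested genes. The summed levels were 191, 164 and 211 FPKM.

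Transcription factors of the lineage were led by Olig1 at 77.2, 68.8 and 66.9 FPKM, the highest level of the listed transcription factors. Olig2, which specifies the lineage, was at 23.2, 22 and 20.6 FPKM, and Sox10, which maintains it, at 17.6, 15.5 and 16.3 FPKM. Neither Olig2 nor Sox10 differed between mice beyond counting error. Sox8 was at 15.7 ± 2.75 FPKM, and Nkx6-2, a late factor, was lowest at 0.682 ± 0.341 FPKM. The other transcription factors among the 10 highest came from the lists of neurons, progenitors and brain regions. They were Neurod6, Bhlhe22 and Neurod2 of excitatory neurons at 41.6 ± 6.83, 32.6 ± 2.14 and 29.4 ± 3.16 FPKM, Sox2, Foxp1 at 28.1 ± 7.33 FPKM, Bcl11b at 22.8 ± 7.19 FPKM, Lhx2 at 20.7 ± 3.15 FPKM and Dlx1.

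Signals that act on oligodendrocytes were measured in 18 genes, 13 of them above 1 FPKM. Lingo1, a neuronal inhibitor of myelination, was at 61.5, 66.3 and 74.2 FPKM. Pdgfa, the mitogen that binds Pdgfra, was at 19.2, 19.2 and 21.4 FPKM, close to the level of its receptor. Pdgfb was at 12.2 ± 1.17 FPKM and Wnt7b at 10.6 ± 1.33 FPKM. Wnt3a was the lowest, at 0.021 FPKM in mouse 1 and listed at 0 in the others.

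Parp1, the gene targeted in the study, was at 23.7, 25.5 and 22.1 FPKM, a biological CV of 6.02%. It differed between the 3 mice beyond counting error but not between mice 1 and 2. Parp2, its closest relative, was at 12.8, 13.4 and 11.6 FPKM, without spread beyond counting error. Parp6, a mono-ADP-ribosyl transferase of neurons, was the highest of 19 genes of ADP-ribose turnover at 74.2, 69.6 and 63 FPKM, followed by the hydrolase Adprh at 40.8 ± 2.49 FPKM and the tankyrase Tnks2 at 31.8 ± 0.881 FPKM. Parp14 was lowest at 0.488 ± 0.0959 FPKM. Of the 19 genes 9 differed between the 3 mice, or 47.4%, near the 43.7% of all tested genes. Between mice 1 and 2, 3 of 19 differed, beside 14.4% of all tested genes. Their median CV was 6.21%, near the 6.79% of all tested genes, and their sums were 287, 283 and 282 FPKM.

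Microglia, the resident phagocytes, had a median of 8.81 FPKM over 16 genes. The complement genes C1qa, C1qb and C1qc were at 70.3, 53 and 41.9 FPKM, at 68.4, 55.6 and 39.2 FPKM and at 64.6, 55 and 39.9 FPKM. Tyrobp, an adaptor of myeloid receptors, was at 50.9, 53.7 and 26.9 FPKM, and Itgam was the lowest at 1.45 ± 0.0987 FPKM. Mouse 3 was lowest for 15 of 16 and mouse 1 highest for 11 of 16, against 41.6% and 32.5% of all tested genes. The sums were 391, 344 and 242 FPKM, with a mean of 367 FPKM in mice 1 and 2. Of 16 genes 14 differed between the 3 mice and 5 between mice 1 and 2, against 43.7% and 14.4% of all tested genes. The 9 genes of axon-tract and activated microglia summed to 85.4, 98.1 and 64.2 FPKM, and mouse 3 was lowest for 5 and highest for 2 of 8 tested. Gpnmb, at 21.2, 27.3 and 4.65 FPKM, made up most of the difference in these sums, while Igf1 was at 5.07, 5.96 and 5.31 FPKM. Border macrophage genes were lower, with a median of 1.58 FPKM, led by Pf4 and Mrc1 at 2.92 ± 0.817 and 2.64 ± 0.646 FPKM, and mouse 2 was lowest for 6 of 6, against 27.4% of all tested genes.

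Endothelial genes had nearly equal sums in the 3 mice. Cldn5, the tight junction protein of brain endothelium, was at 42.8, 44.6 and 37.2 FPKM, and Slc2a1, the glucose transporter of the blood-brain barrier, at 35, 30.8 and 33.9 FPKM. The 12 endothelial genes summed to 172, 177 and 168 FPKM. Of the 12, 7 differed between the 3 mice and 2 between mice 1 and 2, beside 43.7% and 14.4% of all tested genes. Vtn and Rgs5 of pericytes were at 26 ± 2.59 and 19.8 ± 3.76 FPKM, and Myh11 of arterial muscle was lowest at 0.615 ± 0.081 FPKM. Acta2 and Tagln, contractile genes of smooth muscle, were highest in mouse 1, at 3.61, 1.62 and 1.95 FPKM and at 5.22, 3.13 and 3.36 FPKM. Of the 10 pericyte and smooth muscle genes 6 differed between the 3 mice, against 43.7% of all tested genes. Between mice 1 and 2, 5 of 10 differed, against 14.4%. Their median CV was 14.3%, above the 6.79% of all tested genes.

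Fibroblast genes of the meninges were highest in mouse 3 for 12 of 12 members, against 34.4% of all tested genes. Ptgds, a prostaglandin synthase that oligodendrocytes also express, was at 202, 247 and 440 FPKM and made up most of the sum, which was 264, 307 and 525 FPKM. Dcn, a matrix proteoglycan, was at 3.93, 4.8 and 13.2 FPKM, and Lum was lowest at 0.586, 0.783 and 1.29 FPKM. Of 12 genes 11 differed between the 3 mice and 3 between mice 1 and 2, beside 43.7% and 14.4% of all tested genes.

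The linings of the ventricles were represented by Ttr, the transthyretin of choroid plexus, at 650, 522 and 517 FPKM. The other 9 choroid plexus genes stood between 0.414 and 3.58 FPKM. Of 8 tested ependymal genes 2 differed between the 3 mice and 1 between mice 1 and 2, where 38.2% of all tested genes from 1 to 10 FPKM differed between the 3 mice. Ccdc153 and Foxj1, genes of motile cilia, were at 7.57 ± 0.495 and 6.03 ± 0.48 FPKM.

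Blood genes had the widest range of summed level of the cell type lists, at 256, 63.4 and 12.6 FPKM over 12 genes. Hbb-bs, an adult beta globin, was at 143, 31.8 and 4.59 FPKM, and Hba-a1, an alpha globin, at 92.3, 20 and 3.1 FPKM. The mice did not overlap in either gene and kept 1 order, with mouse 1 at the top. Hba-a2 and Hbb-bt, at 2.92 ± 3.64 and 3.4 ± 3.68 FPKM, are near-identical copies, with 99.8% identity over 77% of Hba-a1 and 95% over 92.7% of Hbb-bs, so the division of reads within each pair is uncertain. Hbb-bs differed between mice 1 and 2 alone as well. Ptprc, the common white cell antigen, was at 1.23, 1.14 and 0.907 FPKM, without spread beyond counting error, and the red cell membrane gene Slc4a1 was lowest at 0.0508 ± 0.0208 FPKM.

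The sex-linked genes split mouse 1 from the others. Xist, the RNA that silences an X chromosome in female cells, was at 0.00978, 59.3 and 56.5 FPKM. The Y-linked Eif2s3y was at 27.8 FPKM, Ddx3y at 14.1 FPKM, Kdm5d at 5.24 FPKM and Uty at 2.87 FPKM in mouse 1. In mice 2 and 3 these were listed at 0, apart from 1 count of Ddx3y in mouse 2. Tsix was below 0.12 FPKM in every mouse. The sex of each mouse is not labelled, and with mouse 1 alone on its side, sex and any other trait of mouse 1 cannot be told apart in these data.

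Among markers of forebrain regions, those of the striatum, thalamus and hypothalamus had the widest range of summed level over the mice. Striatal genes summed to 526, 410 and 152 FPKM. All 15 were highest in mouse 1 and lowest in mouse 3, against 41.6% of all tested genes that were lowest in mouse 3. Ppp1r1b, the phosphoprotein DARPP-32 of medium spiny neurons, was at 152, 123 and 19.6 FPKM. Penk, the enkephalin precursor of the indirect pathway, was at 79.2, 50.2 and 18.9 FPKM. Adora2a, the adenosine receptor of the same neurons, was at 29.5, 22.9 and 4.39 FPKM. The lowest listed gene, Isl1, a factor of direct-pathway neurons, was at 7.18, 5.66 and 3.94 FPKM. Mice 1 and 2 were closer to each other than to mouse 3 on the log scale for each of these 4 genes. Between mice 1 and 2 alone 12 of 15 differed, against 14.4% of all tested genes, with a median ratio of 1.28.

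Thalamic genes were equal in sum in mice 1 and 2 and higher in mouse 3, at 144, 144 and 292 FPKM. Mouse 3 was highest for 12 of 14, against 34.4% of all tested genes. Calb2 and Slc17a6, named above, led together with Cacna1g, a T-type calcium channel, at 23.5, 26.9 and 25.3 FPKM, and the transcription factor Lhx2. Lhx9, a factor of thalamic neurons, was at 2.16, 1.81 and 7.04 FPKM, and Gbx2 was lowest at 0.923, 0.956 and 2.84 FPKM. Of the 14 genes 13 differed between the 3 mice and 4 between mice 1 and 2, beside 43.7% and 14.4% of all tested genes.

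Hypothalamic genes had sums of 82.6, 73.3 and 146 FPKM, and mouse 3 was highest for 11 of 15, beside 34.4% of all tested genes. Hcrt, Pmch and Ghrh reached the mean count of 10 only through mouse 3. Their counts were 2, 3 and 75, then 1, 0 and 88, then 6, 9 and 17. For them the filter set this outcome, so the 11 cannot be weighed against that share. Of the 15 genes 12 differed between the 3 mice, and 5 of the 12 that could be tested in mice 1 and 2 differed there, beside 43.7% and 14.4% of all tested genes. Avp, the vasopressin precursor, was at 44.1, 30.2 and 70.7 FPKM, and Oxt, the oxytocin precursor, at 6.47, 3.63 and 18.5 FPKM. Both were lowest in mouse 2. Hcrt and Pmch, the orexin and melanin-concentrating hormone precursors of the lateral hypothalamus, were at 0.198, 0.238 and 5.79 FPKM and at 0.0773, 0 and 5.31 FPKM. They were near 0 in mice 1 and 2 and well above in mouse 3. Cartpt went the other way, at 12.5, 18.2 and 9.98 FPKM, and Nkx2-1, a regional transcription factor, did not differ between mice, at 2.59 ± 0.0703 FPKM.

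The promoters of Avp, Oxt, Hcrt and Pmch are shown as examples of peptide genes whose level was highest in mouse 3. They were picked with their values in view. The peptide genes Trh, Gal, Agrp and Pomc were highest in mouse 3 as well and are not shown. Each is the 120 bases before the RefSeq start on GRCm38.p6, 5′ to 3′ on the gene's strand. Capitals mark the letters ATAAA or TATAA, searched on both strands and able to overlap.
Avp, chr2:130582589-130582708, minus strand: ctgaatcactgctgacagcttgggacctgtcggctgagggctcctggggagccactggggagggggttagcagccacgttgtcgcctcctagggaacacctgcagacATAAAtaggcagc
Oxt, chr2:130576049-130576168, plus strand: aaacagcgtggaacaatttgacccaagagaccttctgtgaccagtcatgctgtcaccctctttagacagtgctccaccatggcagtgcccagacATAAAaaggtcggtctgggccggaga
Hcrt, chr11:100762932-100763051, minus strand: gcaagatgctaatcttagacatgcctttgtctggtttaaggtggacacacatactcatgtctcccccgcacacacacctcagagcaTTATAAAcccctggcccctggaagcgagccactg
Pmch, chr10:88090952-88091071, plus strand: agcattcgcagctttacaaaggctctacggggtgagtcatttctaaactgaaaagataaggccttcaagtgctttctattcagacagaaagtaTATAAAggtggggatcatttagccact
ATAAA was found in each of the 4 windows on the gene's strand, with its first base 13, 26, 32 and 26 bases before the start of Avp, Oxt, Hcrt and Pmch. It occurs on either strand in 20.2% of 32851 promoter windows of the same length, and on the gene's strand in 12.6%. TATAA was found in Hcrt and Pmch and occurs in 11.8% of windows on either strand and in 8.53% on the gene's strand. A match is a description of the letters and not of a bound site. With picked genes the number of matches carries no weight beside these shares.

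The remaining regional lists were cortical layers, hippocampus and olfactory bulb. Cortical layer genes summed to 336, 343 and 331 FPKM, a 1.04-fold range, although 14 of 14 differed between the 3 mice and 8 of 14 between mice 1 and 2, against 43.7% and 14.4% of all tested genes. Lmo4 led at 137, 160 and 119 FPKM, followed by Crym at 41, 36.9 and 59.6 FPKM. Hippocampal genes summed to 66.8, 58.4 and 66.7 FPKM, led by Wfs1, which marks the CA1 field, at 16.3 ± 2.26 FPKM. Olfactory bulb genes were low, with a median of 2.02 FPKM, led by Trpc4 at 9.33 ± 0.748 FPKM and Cdhr1 at 5.32, 8.5 and 4.88 FPKM. Mouse 2 was highest for 5 of 9, against 33.1% of all tested genes.

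Of genes that would mark tissue from outside the forebrain, Hox and pituitary genes were mostly absent, while some midbrain genes were detected in mouse 3. Of 39 Hox genes, which are active from the hindbrain backwards, 33 had no count in any library, and the highest count of any was 3. Of 8 pituitary genes 5 had no count. The list of midbrain, hindbrain and cerebellum had 2 of 15 members above 1 FPKM, Cbln1 at 17.8, 15.4 and 32.5 FPKM and Zic1 at 11.8, 12.2 and 16.3 FPKM, both of which forebrain neurons or meninges also express. The 6 tested members of that list were all highest in mouse 3, beside 34.4% of all tested genes. Gata3 and Pax7 reached the mean count of 10 only through mouse 3, with 2, 2 and 49 and with 3, 0 and 38 counts. For them the filter set this outcome, so the counts of this list are descriptions and cannot be weighed against the shares of all genes. Of the 6, 5 differed between the 3 mice, beside 43.7% of all tested genes. In mice 1 and 2, 1 of the 4 that could be tested differed, beside 14.4%. Gata3, a factor of midbrain and hindbrain neurons, was at 0.036, 0.0289 and 0.689 FPKM, and En1, which marks the midbrain and anterior hindbrain, at 0, 0.0354 and 0.345 FPKM. The dopamine neuron list, given under other observations, had 6 of 12 members above 1 FPKM and summed to 19.9, 20.6 and 55.3 FPKM. Its 9 tested genes were all highest in mouse 3. That list was drawn up after values had been seen, so this count is a description only. The part of the dissected region in the differences of mouse 3 was not tested.

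**Figure D4:**
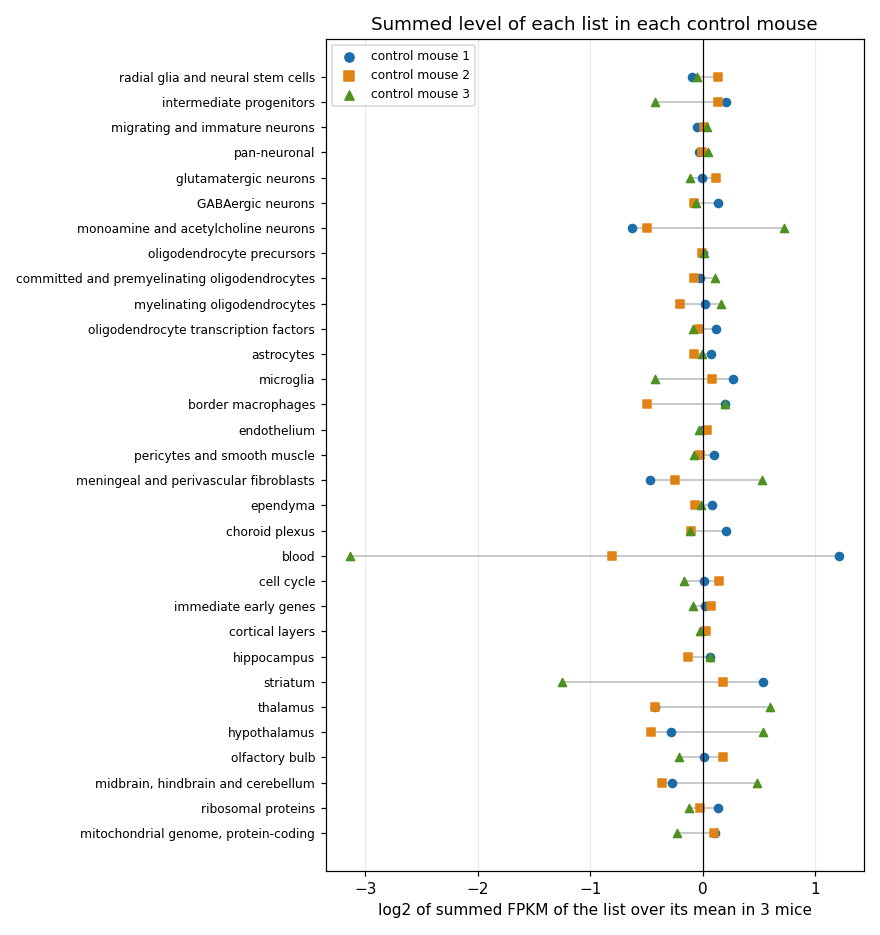
Summed FPKM of each list in each control mouse, as log2 of the sum over its mean in the 3 mice (circle, square and triangle for mice 1, 2 and 3). Blood genes span the widest range (256, 63.4 and 12.6 FPKM). Mouse 3 also lies far from the others for striatum (526, 410 and 152 FPKM), thalamus (144, 144 and 292 FPKM) and hypothalamus, while precursor, pan-neuronal and endothelial lists lie close to 0 for all mice.

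Receptor and channel genes held subunits typical of early life beside subunits of the adult brain. Among AMPA receptor subunits, Gria2, which blocks calcium entry, made up 45.1% ± 1.91 of the family's summed FPKM and Gria1 35.8% ± 1.46, with Gria3 at 10.2% ± 1.05 and Gria4 at 8.85% ± 1.93. Among NMDA receptor subunits, the obligatory Grin1 was at 40.2, 41.9 and 36 FPKM and Grin2b at 36.5, 36.6 and 34.9 FPKM. Grin2a, the subunit that adult synapses gain, was at 2.42, 2.12 and 2.08 FPKM. Grin3a and Grin2d, subunits of early life, were at 20.1 ± 4.41 and 16.7 ± 3.54 FPKM, both above Grin2a in every mouse. Grin2c was at 2.49 ± 0.253 FPKM and Grin3b at 0.13 ± 0.0521 FPKM. Kainate receptor subunits were led by Grik5 at 74.5 ± 9.89 FPKM, with Grik2 at 25.3 ± 0.304, Grik3 at 17.8 ± 0.541, Grik1 at 15 ± 2.48 and Grik4 at 5.53 ± 0.687 FPKM.

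Of the GABA-A receptor subunits, the alpha subunits Gabra5 and Gabra3 were at 43.6 ± 5.05 and 32 ± 4.78 FPKM, and Gabra4 at 13.8 ± 0.898 FPKM. Gabra2 was at 6.93, 7.93 and 8.85 FPKM. Gabrg1 and Gabrg3 were at 8.69 ± 2.24 and 6.33 ± 0.425 FPKM. Gabrb2 and Gabrb1 were at 15.9 ± 2.46 and 6.87 ± 1.4 FPKM. Gabrd, of extrasynaptic receptors, was low in mouse 3, at 9.76, 9.26 and 3.32 FPKM. Gabrq was at 1.29 ± 0.812 and Gabre at 0.512 ± 0.362 FPKM, and Gabra6, which marks cerebellar granule cells, was listed at 0 in mice 1 and 2 and at 0.0183 FPKM in mouse 3. Mouse 3 was highest for 11 of 14 tested subunits, against 34.4% of all tested genes. Of the 14, 13 differed between the 3 mice, against 43.7% of all tested genes, and 2 between mice 1 and 2, a share like the 14.4% of all tested genes.

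Glycine receptor transcripts were those of Glrb, the anchoring subunit, at 44.4 ± 4.03 FPKM and of the embryonic alpha subunit Glra2 at 20.3 ± 2.44 FPKM. Glra3 was at 0.605 ± 0.203 FPKM, and the adult alpha subunit Glra1 was at 0.121, 0 and 0.567 FPKM. Of the sodium channels, the pore-forming Scn2a was at 37.6 ± 2.88 FPKM, Scn8a at 20.3 ± 0.702, Scn3a at 17.1 ± 2.4 and Scn1a at 15.4 ± 0.84 FPKM. Scn9a and Scn4a, channels known from peripheral nerve and muscle, were at 2.84 ± 0.256 and 0.034 ± 0.0314 FPKM. The accessory subunits Scn3b and Scn2b were at 54.6 ± 6.02 and 12.3 ± 0.631 FPKM. Scn4b, which striatal neurons express strongly, was at 6.66, 5.64 and 1.03 FPKM and so kept the order of the striatal list.

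Gene pairs in which 1 gene is expressed earlier in development than the other were compared within each library, where library scaling has no effect. The earlier gene need not give way to the later gene. Grin2b exceeded Grin2a by 4.03 ± 0.10 on the log2 scale (SD, n = 3 mice), and Nefl exceeded Nefh by 2.93 ± 0.14. Glra2 exceeded Glra1 by 40.5-fold in mouse 3 and 162-fold in mouse 1, with no count of Glra1 in mouse 2. In these pairs the earlier gene was far ahead. The later gene was ahead in others. The log2 ratio of earlier to later was -2.88 ± 0.14 for the chloride transporters Slc12a2 and Slc12a5, which set whether GABA excites or inhibits. It was -2.36 ± 0.04 for the scaffolds Dlg3 and Dlg4. The ratio was -0.59 ± 0.13 for Map1b and Map2. It lay near balance for the sodium channels Scn3a and Scn1a at 0.14 ± 0.12 and the kinase subunits Camk2b and Camk2a at 0.41 ± 0.03. Slc17a6 and Slc17a7 gave -3.31, -3.93 and -2.02 in mice 1, 2 and 3, with mouse 3 above both others. Slc17a6 is also in the thalamic list, so region and stage cannot be told apart in this pair.

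**Figure D5:**
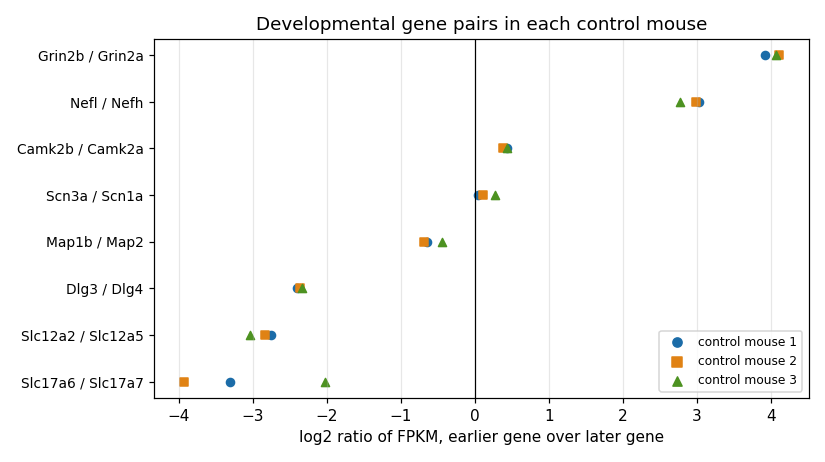
Log2 ratio of the FPKM of the earlier to the later gene of each pair in each control mouse (circle, square and triangle for mice 1, 2 and 3). The sign was shared by all 3 mice in the 8 pairs drawn, from Grin2b over Grin2a at 4.03 to Slc17a6 over Slc17a7, which was at -2.02 in mouse 3 and -3.93 in mouse 2. Glra2 over Glra1 is not drawn because mouse 2 had no count of Glra1.

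Activity-dependent and peptide genes were measured as well. Of 14 immediate early genes 12 were above 1 FPKM, led by Jun at 12.9, 14.4 and 16.9 FPKM, Egr1 at 12.1, 11.6 and 7.31 FPKM, Nr4a1 at 10.2 ± 0.947 FPKM and Dusp1 at 9.52 ± 0.602 FPKM. Fosb was lowest at 0.386 ± 0.129 FPKM. Of the 14 genes 8 differed between the 3 mice and 1 between mice 1 and 2, beside 43.7% and 14.4% of all tested genes. Mouse 3 was lowest for 9 of 14, against 41.6%. The neuropeptides, after Sst, were led by Cck at 109, 109 and 130 FPKM, Npy, and Scg2, a granin of secretory granules, at 75.9, 68.6 and 135 FPKM. Crh was lowest at 3.15 ± 0.475 FPKM. Of the neurotrophin genes, the receptors Ntrk2 and Ntrk3 were at 75.5 ± 2.8 and 17.2 ± 0.718 FPKM, well above the ligands Ntf3 at 3.82 ± 1.08 and Bdnf at 1.2, 1.48 and 3.05 FPKM.

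The genes of the steadiest and the most variable ends of the range were of different kinds. Among 6584 genes with a mean of at least 10 FPKM and 100 counts, 945 had a biological CV of 0. Of these, the genes with the smallest raw spread were Ywhaz, a 14-3-3 adaptor, at 310, 308 and 304 FPKM, Tpi1, a glycolytic enzyme, at 171, 171 and 168 FPKM, and Mmd at 76, 75.9 and 74.6 FPKM. They were followed by Golga7, Gtf2f1, Ogdh, Adam22, Sgip1, Cse1l, Adam15, Anapc1 and Yipf6, with means from 47.7 to 10.2 FPKM. Of 16 common reference genes 12 differed between the 3 mice and 7 between mice 1 and 2, against 43.7% and 14.4% of all tested genes. Their median level was 68.5 FPKM, and 56.3% of genes between 10 and 100 FPKM differed between the 3 mice. The median biological CV of the list was 6.41%, near the 6.79% of all tested genes. Gapdh was at 614, 615 and 634 FPKM and Actb at 787, 711 and 658 FPKM, with biological CVs of 2.76% and 8.23%, and Tbp was lowest in level at 2.62 ± 0.201 FPKM.

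The 12 genes with the largest biological CV among 11962 were globins, sex-linked genes, genes high in mouse 3, and Cntnap5a. The globin Hbb-bs stood at 122%, with Hba-a1 beside it. The sex-linked Xist, Eif2s3y, Ddx3y and Kdm5d stood at 86.6% for Xist and 173% for the others. Tcf7l2, Cbln4, Irs4, Slc6a3 and Ebf3 were all highest in mouse 3, with Cbln4, a synaptic organiser, at 4.65, 3.52 and 16.9 FPKM and Slc6a3, the dopamine transporter, at 0.402, 0.456 and 5.9 FPKM. Cntnap5a, a neurexin-like adhesion gene, was low in mouse 1, at 0.0582, 2.17 and 2.7 FPKM, from 11, 513 and 654 counts.

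Genes that set 1 mouse apart by at least 2-fold from both others numbered 5 above and 3 below in mouse 1, none in either direction in mouse 2, and 43 above and 49 below in mouse 3. The 6 genes furthest in each direction are named for each mouse, also where they did not reach 2-fold. In mouse 1 the genes furthest above were Eif2s3y, Ddx3y, Kdm5d, Hbb-bs, Hba-a1 and Slc5a7, the choline transporter, at 2.04, 1.19 and 1.17 FPKM. Those furthest below were Xist, Cntnap5a, Mid1 at 0.671, 1.96 and 1.87 FPKM, Hes5, a Notch target, at 3.91, 7.62 and 7.39 FPKM, Map3k21 and Dynlt1c. In mouse 2 the genes furthest above were Poli, a DNA polymerase, at 2.98, 5.71 and 3.37 FPKM, Cdhr1, Abi3bp, Cwh43, Kctd21 and Zfp658. Those furthest below were Oxt, F13a1, Zfhx3, Fbln5, Arhgap36 and Plk5. In mouse 3, Slc6a3, Ebf3, Tcf7l2, Cbln4, Irs4 and Lhx9 were furthest above, and Hbb-bs, Hba-a1, Ppp1r1b, Adora2a, Scn4b and Cd4, at 2.52, 2.22 and 0.378 FPKM, furthest below.

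Ribosomal protein genes shared an order over the mice, with small differences. Of 82 tested genes 78 were highest in mouse 1 and 70 lowest in mouse 3, against 32.5% and 41.6% of all tested genes. The sums were 25662, 22987 and 21382 FPKM. The median level of the list was 243 FPKM. Between the 3 mice 76 of the 82 differed, beside 84.2% of all tested genes between 100 and 1000 FPKM. Between mice 1 and 2, 69 of 81 ribosomal genes differed, against 14.4% of all tested genes of any level. Their median log2 difference of mouse 1 over mouse 2 was 0.16. These genes are short, with a median length of 935 bp against 3396 bp for all 12005 genes of at least 1 FPKM and 100 counts. Other genes shorter than 1000 bp had a median log2 difference of 0.06 and genes of 8000 bp or more of -0.03 between the same mice. The part of gene length in the ribosomal difference was not tested. The 12 tested mitochondrial genes were lowest in mouse 3, with a median log2 difference of -0.33 from the mean of mice 1 and 2, for 11 of them with at least 100 counts and 1 FPKM.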

How the data were processed

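Polyadenylated RNA of forebrain was sequenced per the labels' protocols, with a directional kit and RNA integrity numbers above 6.8. The authors deposited read counts per Ensembl gene and FPKM values. The submitters' processing notes list CASAVA, STAR 2.5, HTSeq 0.6.1, DESeq and mm10 with no role for any. Strand setting and annotation were not given in the sources used here. The deposited FPKM values equalled the count over 1 whole length per gene (within 0.01 bp in 100% of values) and the library total. Names and coordinates came from GENCODE M21, which held 34490 of 35275 identifiers, and the 785 others took at most 0.128% of a library's counts.

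Totals ran from 17262042 to 22118915 counts. Library sizes were scaled by TMM in edgeR 4.0.16 (R 4.3.3). The chi-square test, CVs and figures were made in Python 3.11.15 with scipy 1.17.1 and tested on simulated data. Genes entered the test with a mean count of at least 10. The 3 mice form 1 group, so no groups were compared. The members and lists were chosen with earlier results of these data known. Hox, ribosomal and mitochondrial lists were taken by gene name. Lhfpl3 and Kiss1 had no match, nor had Snrpn, Rmst and Sox2ot of the lists drawn up later.

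The rule for named genes took the 20 with the highest mean FPKM, the 4 highest and the lowest of each list, both genes of each pair, the receptor and channel subunits listed, Parp1, Parp2 and sex-linked genes. It also took the 12 largest and 12 smallest biological CVs (mean count of at least 100, FPKM of at least 1, or 10 for the smallest), per mouse the 6 genes furthest above and below both others, and the 10 highest transcription factors. Any further gene in the text, such as Hcrt and Pmch, was picked with its values in view. Alternatives were other library scaling, other filters, a likelihood ratio test, edgeR dispersions, log2(FPKM + 1) and log2(FPKM + 0.1), TPM, other detection limits and leaving out each mouse. Some genes that this rule names are not reported here.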

Additional observations from a re-analysis of the deposited data

How the results depend on the processing

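No paired analysis was possible because 1 group was described. The number of genes that differed between mice, 7287 in the main analysis, stayed between 6775 and 7331 under other scalings, other filters and the likelihood ratio test, and was 2397 to 5642 with 1 mouse left out, lowest without mouse 3. The median biological CV of 6.79% was 12.3% from edgeR's tagwise and 13.6% from its trended dispersion, 9.31% as the SD of log2(FPKM + 0.1) on the natural log scale, and 2.27% to 5.75% with 1 mouse left out. The 20 genes highest by count took 6.27% of the counts, against 4.85% for the 20 highest by FPKM. The number of detected genes was 8958 at 5 FPKM and 14826 at 0.5 FPKM. Of 215 list medians under alternatives 50 moved by more than the spread between mice, 42 of them in TPM, which is another scale. Of 36 log2 ratios of pairs 2 moved, Grin2b to Grin2a at 3.53 and Nefl to Nefh at 2.72, as differences of log2(FPKM + 1), and none changed sign. With 3 mice the SDs are themselves imprecise, and genes under 1 FPKM rest on few counts.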

Other observations

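Some of the listed imprinted genes, which are expressed from 1 parental copy, had high levels. The lists in this section were drawn up after values had been seen, so their counts are descriptions. Of 19 measured imprinted genes 18 were above 1 FPKM and 12 above 10 FPKM, with a median of 16.3 FPKM. Nnat, a membrane protein of developing neurons, was at 449, 375 and 592 FPKM in mice 1, 2 and 3, Meg3 at 445, 462 and 425 FPKM, and Ndn, the neuronal growth suppressor necdin, at 277, 260 and 379 FPKM. Rian, a noncoding RNA of the same cluster as Meg3, was at 165, 176 and 194 FPKM. Dlk1, also of that cluster, was at 0.784, 0.688 and 2.21 FPKM, and Kcnq1ot1 was the lowest at 0.657 ± 0.0747 FPKM. Mouse 3 was highest for 15 of 19 genes and mouse 2 lowest for 13 of 19, against 34.4% and 27.4% of all tested genes.

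Genes of dopamine neurons, many of whose cell bodies lie in the midbrain, summed to 19.9, 20.6 and 55.3 FPKM over 12 genes. The 9 with a mean count of at least 10 were all highest in mouse 3, beside 34.4% of all tested genes. Foxa1 and Lmx1b reached that count only through mouse 3, with 3, 1 and 45 and with 4, 10 and 47 counts. For them the filter set this outcome, so the 9 cannot be weighed against that share. All 9 differed between the 3 mice, and 1 of the 7 that could be tested in mice 1 and 2 differed there, beside 43.7% and 14.4% of all tested genes. Th, the rate-limiting enzyme of dopamine synthesis, was at 0.29, 1.42 and 4.35 FPKM. Foxa2 and Pitx3, factors of these neurons, were listed at 0 in mice 1 and 2 and at 0.446 and 0.393 FPKM in mouse 3. Nr4a2, which cortical neurons also express, led the list at 6.04, 5.88 and 16.1 FPKM.

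Of 10 genes of olfactory ensheathing glia, 8 were above 1 FPKM. Frzb, a secreted Wnt inhibitor, was at 2.52, 2.56 and 1.84 FPKM, and Prss56 was the lowest at 0.0797, 0.213 and 0 FPKM. Long noncoding RNAs were led by Malat1, a nuclear RNA, at 547, 607 and 403 FPKM, and by Snhg11 at 362, 372 and 378 FPKM. Dlx6os1, transcribed beside the Dlx5 and Dlx6 genes, was at 9.24, 8.48 and 2.99 FPKM, in the same order over the mice as Dlx5. Neat1, which builds paraspeckles, was the lowest at 2.27 ± 0.459 FPKM.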
